A study of Oryza sativa Japonica Group with 12 samples.

Results

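Transcripts of 60 rice genes of auxin synthesis, transport and signalling were measured in stem bases, the region at the foot of the shoot from which crown roots arise. The genes were chosen by name. A gene entered when its symbol or a synonym, without a leading Os, began with IAA, ARF, SAUR, PIN, YUC, GH3, AUX, TIR or AFB and a number, and when it had a probe set of its own. Of the 24160 genes with such a probe set, these 60 comprised 24 Aux/IAA genes, 19 ARF genes, 9 GH3 genes, 6 PIN genes, SAUR39 and YUCCA1. No AUX, TIR or AFB gene entered under this rule. Of 71 genes that matched by name, 4 other Aux/IAA genes were left out, and 7 had no probe set of their own (PIN1A, PIN1B, PIN1C, ARF6, ARF19, ARF21 and ARF25) and were not analysed here. Each of the 60 genes had 1 probe set.

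Auxin is made from tryptophan in a short pathway whose last enzymes are the YUCCA flavin monooxygenases, and it is moved out of cells by PIN efflux carriers. Auxin joins TIR1/AFB receptors to Aux/IAA repressor proteins, which are then degraded, and this frees ARF transcription factors to act on genes that carry auxin response elements. GH3 and SAUR genes, and many Aux/IAA genes, belong to the early auxin responses, and several GH3 enzymes inactivate auxin by joining it to amino acids. In rice, crown root initiation runs through this pathway, since CRL1, a LOB-domain factor, is switched on by ARF proteins.

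Every plant carried the crl1 mutation in the japonica cultivar Taichung 65, in which CRL1 is defective and crown roots do not form normally. OE 67.1 and OE 67.5 are lines that overexpress the bHLH factor gene OsbHLH044 from the construct pC5300.OE-OsbHLH044 in this mutant; the labels do not name the promoter. Null 67.1 and null 67.5 are their sister segregants, which carry no T-DNA, so a line and its null sister form a couple. Plantlets were 6 days old, grown for 5 days in Petri dishes and 24 h in flasks, and each of the 3 arrays of a line came from a separate repetition with 8 to 12 pooled stem bases. The levels of OsbHLH044 and CRL1 were not analysed here, as neither name is attached to a tested probe set.

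Values are log2 array signals, on which a difference of 1 is a 2-fold difference, and the number of arrays limits their precision. The signal of a probe set also depends on its probes, so levels of different genes are not ranked. The medians of the 12 arrays over the tested probe sets lay between 4.52 and 4.55. Of the markers used to check the tissue, 4 of 6 green tissue genes, 3 of 9 root and root primordium genes and 2 of 14 seed genes lay above the array median on all 12 arrays. HOS59, the only gene measured of a list of names set for the shoot meristem, lay below it on all 12. Whether HOS59 marks that tissue was not checked, so its level does not tell whether shoot meristem was present. In bulk tissue, fewer cells of a type and less RNA per cell cannot be told apart. The same 60 genes had 30 probe sets above the array median on all 12 arrays and 22 below it on all 12. All 6 PIN probe sets and SAUR39 were outside the first group, whereas 13 of the 19 ARF and 13 of the 24 Aux/IAA probe sets were in it. The median SD between arrays of a line was 0.13 for the 60 genes, with a range of 0.04 to 0.26, against 0.135 for all tested probe sets.

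**Figure D1:**
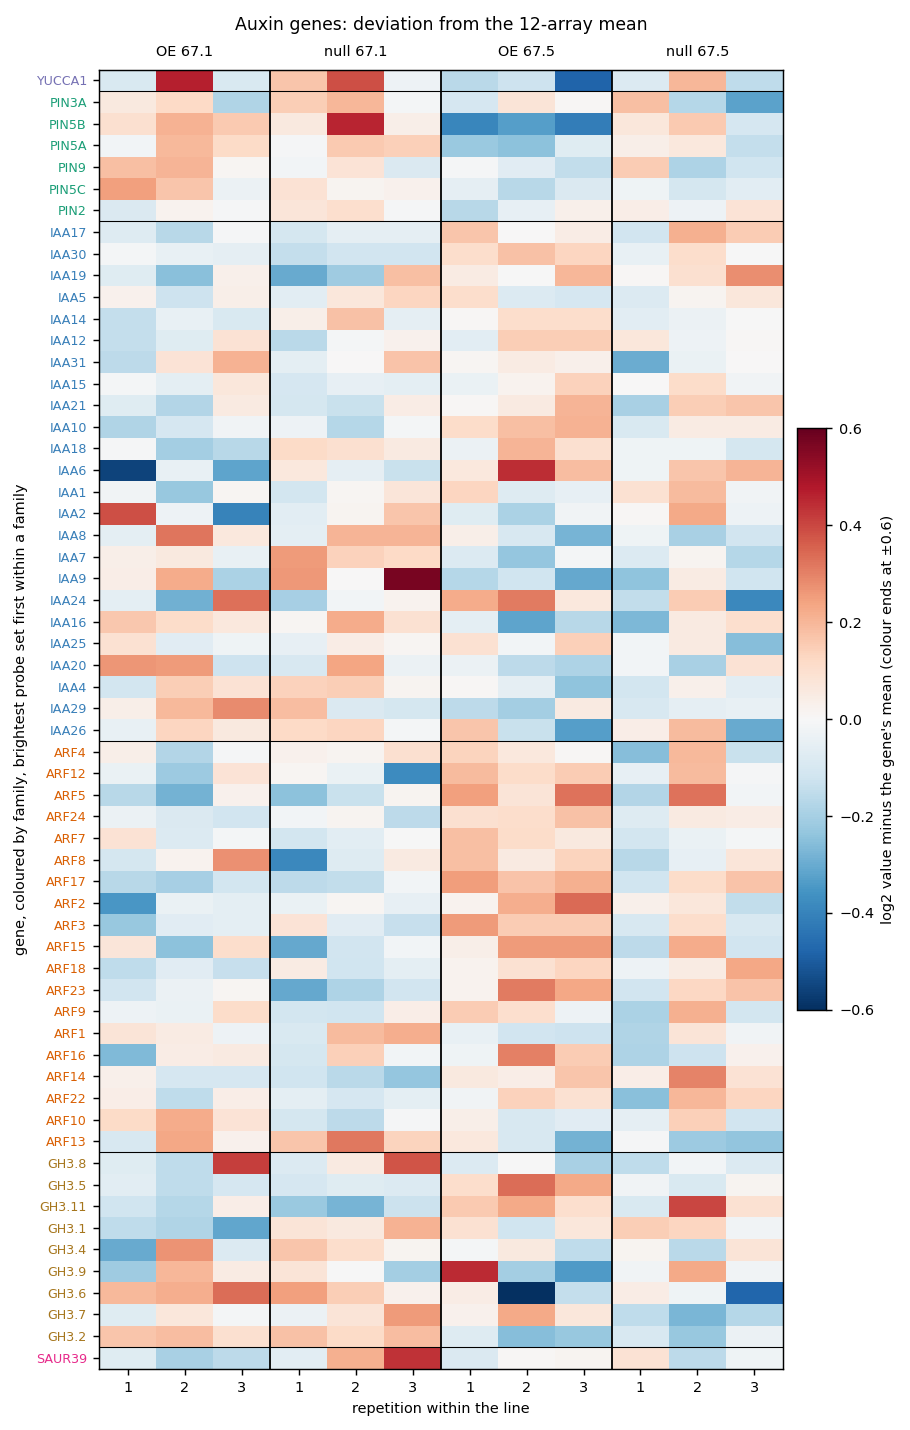
Deviation of each of the 60 genes on each of the 12 arrays from that gene's mean (colour, log2 units, ending at ±0.6), with genes down the page by family and arrays across by line and repetition. Most cells are pale; the deep blue run of PIN5B in OE 67.5 and the blue cells of IAA6 in OE 67.1 stand out, and most ARF genes are redder in OE 67.5 than in OE 67.1.

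The first question was whether auxin genes changed with OsbHLH044 overexpression. None of the 60 genes passed an adjusted p of 0.05 in limma for the mean of both couples, against 0.186% of all tested probe sets (45 of 24251). At an unadjusted p under 0.05 there were 3 of 60 genes, or 5.0%, against 9.0% of all probe sets, namely ARF8, which was higher, and GH3.1 and PIN5B, which were lower. The count was 6 without repetition 2 of OE 67.1 and 8 without repetition 2 of null 67.5. The shares of all probe sets in these fits are not given here. In this comparison 32 genes had a positive and 28 a negative difference, with a median of 0.02, and over all probe sets the median was 0.01 with 53.2% positive. The largest difference of the 60 in size was 0.23. The 95% intervals of all 60 genes lay within ±0.5, and together they reached from a 0.755-fold to a 1.34-fold level in the overexpressing lines relative to their null sisters.

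**Figure D2:**
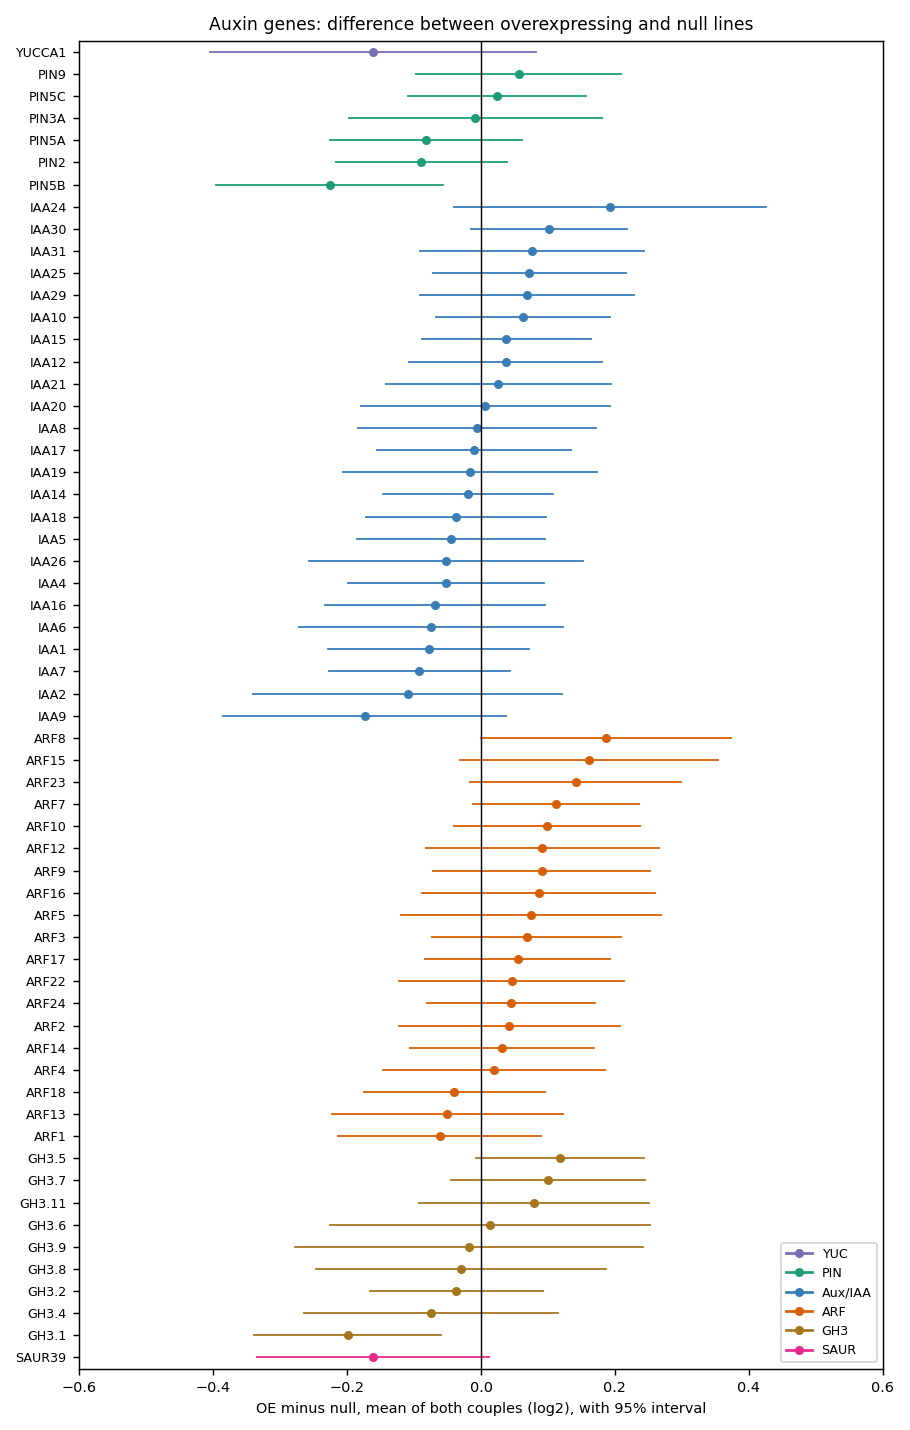
Difference between overexpressing and null lines for each gene (point, log2, mean of both couples) with its 95% interval from limma (line), ordered within each family (colour). All intervals stay between -0.41 and 0.43; those of PIN5B and GH3.1 lie below 0 and that of ARF8 just above it, and none of the 3 passed the adjusted threshold.

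YUCCA1 (LOC9269185), whose overexpression in rice is known to raise auxin and crown root number, had values of 4.47, 5.03 and 4.47 in OE 67.1 against 4.73, 4.95 and 4.53 in null 67.1. It had 4.40, 4.44 and 4.08 in OE 67.5 against 4.48, 4.76 and 4.41 in null 67.5. The arrays of line and sister overlapped in both couples. The difference was -0.16 ± 0.11 (mean of both couples, log2 ± SE, adjusted p = 0.699 in limma), with a 95% interval of -0.40 to 0.08.

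Of the 6 PIN genes, PIN5B (LOC4347506) had the lowest p for the mean of both couples. The annotation lists this locus and LOC4346116, called PIN5C here, each as both OsPIN5b and OsPIN5c. In rice a short PIN protein named PIN5b sits in the endoplasmic reticulum, and which locus that name belongs to was not checked. Its values were 4.20, 4.31 and 4.26 in OE 67.1 against 4.16, 4.56 and 4.14 in null 67.1, where the arrays overlapped. They were 3.71, 3.77 and 3.69 in OE 67.5 against 4.17, 4.26 and 4.0 in null 67.5. The 3 arrays of OE 67.5 thus lay below the other 9. The difference was -0.42 ± 0.11 in couple 67.5 (adjusted p = 0.177), -0.03 ± 0.11 in couple 67.1 and -0.23 ± 0.08 for the mean of both (adjusted p = 0.402), all in limma. The change itself differed between the couples by 0.39 ± 0.16, with an unadjusted p of 0.0282 and an adjusted p of 0.98 in limma.

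The other PIN genes differed less. PIN2 (LOC4341736), which acts in root gravitropism, ranged from 2.42 to 2.69 over the 12 arrays and differed by -0.09 ± 0.06 for the mean of both couples. PIN5A (LOC4324368, also listed as PIN6) had 3.29, 3.27 and 3.44 in OE 67.5 against 3.55, 3.58 and 3.37 in null 67.5, so the arrays overlapped, with a difference of -0.16 ± 0.09 in that couple. PIN9 (LOC4327533), PIN5C (LOC4346116) and PIN3A (LOC4326565), the last a carrier of the plasma membrane, differed by 0.06 ± 0.07, 0.02 ± 0.06 and -0.01 ± 0.09 for the mean of both couples. Their signs differed between the couples, and PIN3A's and PIN5C's sign for the mean turned when 1 array was left out.

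The 24 Aux/IAA genes, which encode the repressors of the pathway, had 10 positive and 14 negative differences for the mean of both couples, with a median of -0.01. IAA30 (LOC4352721) was the only one of the 60 genes whose arrays did not overlap in the same direction in both couples (1.67% of them, against 1.2% of all probe sets). It had 7.85, 7.82 and 7.81 in OE 67.1 against 7.72, 7.75 and 7.75 in null 67.1, and 7.97, 8.04 and 7.99 in OE 67.5 against 7.82, 7.97 and 7.86 in null 67.5; the lowest array of OE 67.5 exceeded the highest of null 67.5 by less than the rounding shown. The overexpressing lines were thus slightly higher in both couples. The difference was 0.10 ± 0.05, a 1.07-fold level (95% interval 0.99 to 1.16), and it did not pass (adjusted p = 0.615 in limma). IAA30 lies next to IAA31 (LOC4352722) with 0 protein-coding genes between them in assembly ASM3414082v1. IAA31, given here because of that position, differed by 0.08 ± 0.08, and its arrays overlapped in couple 67.1.

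Among the other Aux/IAA genes, IAA24 (LOC4342573) had 3.46, 3.23 and 3.85 in OE 67.1 against 3.32, 3.50 and 3.54 in null 67.1. It had 3.74, 3.83 and 3.58 in OE 67.5 against 3.37, 3.67 and 3.13 in null 67.5. The arrays overlapped in each couple, and the difference was 0.19 ± 0.11 for the mean of both couples. IAA9 (LOC4331061) had 3.97, 4.15 and 3.74 in OE 67.1 against 4.19, 3.93 and 4.50 in null 67.1, and the array at 4.50 stood apart from the others. Its difference was -0.17 ± 0.10 for the mean of both couples. IAA17 (LOC4338160), with 9.39 to 9.77 over all arrays, and IAA26 (LOC4347643), with 2.46 to 2.98, differed by -0.01 ± 0.07 and -0.05 ± 0.10.

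The ARF genes, which encode the DNA-binding factors of the pathway, leaned to positive differences. Of 19, 16 had a positive and 3 a negative difference for the mean of both couples, with a median of 0.07, and none passed. Of all probe sets 53.2% were positive, with 61.9% of those above the overall median of 4.54 and 44.4% of those below it. On all 12 arrays, 13 of the 19 ARF probe sets lay above the array median. ARF8 (LOC4330045) had 6.01, 6.14 and 6.39 in OE 67.1 against 5.73, 6.04 and 6.17 in null 67.1, and 6.30, 6.17 and 6.25 in OE 67.5 against 5.95, 6.07 and 6.19 in null 67.5. Its arrays overlapped in both couples, and the difference was 0.19 ± 0.09 (unadjusted p = 0.0499, adjusted p = 0.555 in limma). ARF23 (LOC4350610, also listed as OsARF1) had 5.23, 5.31 and 5.36 in OE 67.1 against 5.04, 5.16 and 5.23 in null 67.1, and 5.37, 5.66 and 5.58 in OE 67.5 against 5.23, 5.47 and 5.52 in null 67.5. The lines met at 5.23 in couple 67.1, without overlap, and overlapped in couple 67.5, with a difference of 0.14 ± 0.07. ARF7 (LOC4329672) had 6.79, 6.62 and 6.69 in OE 67.1 against 6.59, 6.64 and 6.70 in null 67.1, and 6.88, 6.81 and 6.76 in OE 67.5 against 6.59, 6.66 and 6.69 in null 67.5. It was separated in couple 67.5 alone and differed by 0.11 ± 0.06 for the mean of both couples.

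The lean of the ARF genes came with couple 67.5. There 15 of 19 were positive, with a median of 0.13 and 52.7% of all probe sets positive, against 9 of 19 and a median of -0.02 in couple 67.1. ARF3 (LOC4327014), of the ETTIN group that patterns flowers in Arabidopsis, had 5.90, 5.80 and 5.80 in OE 67.5 against 5.55, 5.75 and 5.55 in null 67.5, without overlap, and differed by 0.21 ± 0.09 (adjusted p = 0.438 in limma). In couple 67.1 it had 5.42, 5.58 and 5.59 in OE against 5.73, 5.58 and 5.51 in null. ARF10 (LOC4336419) had 3.57, 3.68 and 3.54 in OE 67.1 against 3.35, 3.30 and 3.45 in null 67.1, a difference of 0.23 ± 0.09 that did not pass. Its arrays overlapped in couple 67.5. ARF4 (LOC4326957, also listed as ARF2), with 8.16 to 8.61 over all arrays, differed by 0.02 ± 0.08, and its sign turned under other settings. Values beside this lean are those of all probe sets: in couple 67.5, 61.8% of the probe sets above the overall median of 4.54 were positive against 43.5% of those below it. Among the 60 genes, 24 of the 35 brighter and 7 of the 25 dimmer ones were positive there. A further quantile normalization gave 15 of 19 ARF genes and 28 of all 60 genes positive in couple 67.5, with an ARF median of 0.09. The share of all probe sets positive after that normalization is not given here, and the part of signal level in the ARF lean was not tested.

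Of the 9 GH3 genes, 4 had a positive and 5 a negative difference for the mean of both couples. GH3.1 (LOC4327043) had the smallest p of all 60 genes for the mean of both couples. It had 5.55, 5.52 and 5.39 in OE 67.1 against 5.78, 5.76 and 5.91 in null 67.1, and 5.79, 5.58 and 5.77 in OE 67.5 against 5.85, 5.83 and 5.68 in null 67.5. The 3 arrays of OE 67.1 lay below the other 9, and the arrays of couple 67.5 overlapped. The difference was -0.33 ± 0.09 in couple 67.1 (adjusted p = 0.886), -0.07 ± 0.09 in couple 67.5 and -0.20 ± 0.07 for the mean of both (unadjusted p = 0.00855, adjusted p = 0.363), all in limma.

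GH3.5 (LOC4339756), listed as JAR1, encodes an enzyme known to join jasmonate to isoleucine and so acts on another hormone than most of the family. It had 5.87, 5.78 and 5.83 in OE 67.1 against 5.83, 5.86 and 5.85 in null 67.1, which overlapped. It had 6.04, 6.27 and 6.16 in OE 67.5 against 5.91, 5.84 and 5.95 in null 67.5, so OE 67.5 lay above all other lines. The difference in couple 67.5 was 0.26 ± 0.08, a 1.20-fold level, with an adjusted p of 0.284 in limma. GH3.7 (LOC4341111) had 3.68, 3.82 and 3.74 in OE 67.1 against 3.72, 3.83 and 4.01 in null 67.1, and 3.78, 3.98 and 3.82 in OE 67.5 against 3.60, 3.48 and 3.58 in null 67.5. Here null 67.5 was the line that stood apart, below the other 9 arrays. The difference in couple 67.5 was 0.31 ± 0.10 (adjusted p = 0.263 in limma), and -0.11 ± 0.10 in couple 67.1. GH3.8 (LOC4343785), an enzyme that joins auxin to aspartate in rice, ranged from 5.84 to 6.45 and differed by -0.03 ± 0.10 for the mean of both couples.

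SAUR39 (LOC9271092), a small auxin-up RNA whose overexpression in rice lowers auxin levels and transport, had 2.72, 2.60 and 2.64 in OE 67.1 against 2.73, 3.01 and 3.23 in null 67.1. The lines came within 0.01 of each other there without overlap. It had 2.71, 2.80 and 2.81 in OE 67.5 against 2.88, 2.64 and 2.77 in null 67.5, with overlap. The difference was -0.34 ± 0.11 in couple 67.1 (unadjusted p = 0.0106) and 0.01 ± 0.11 in couple 67.5, and neither passed. All 12 values lay below the array medians.

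**Figure D3:**
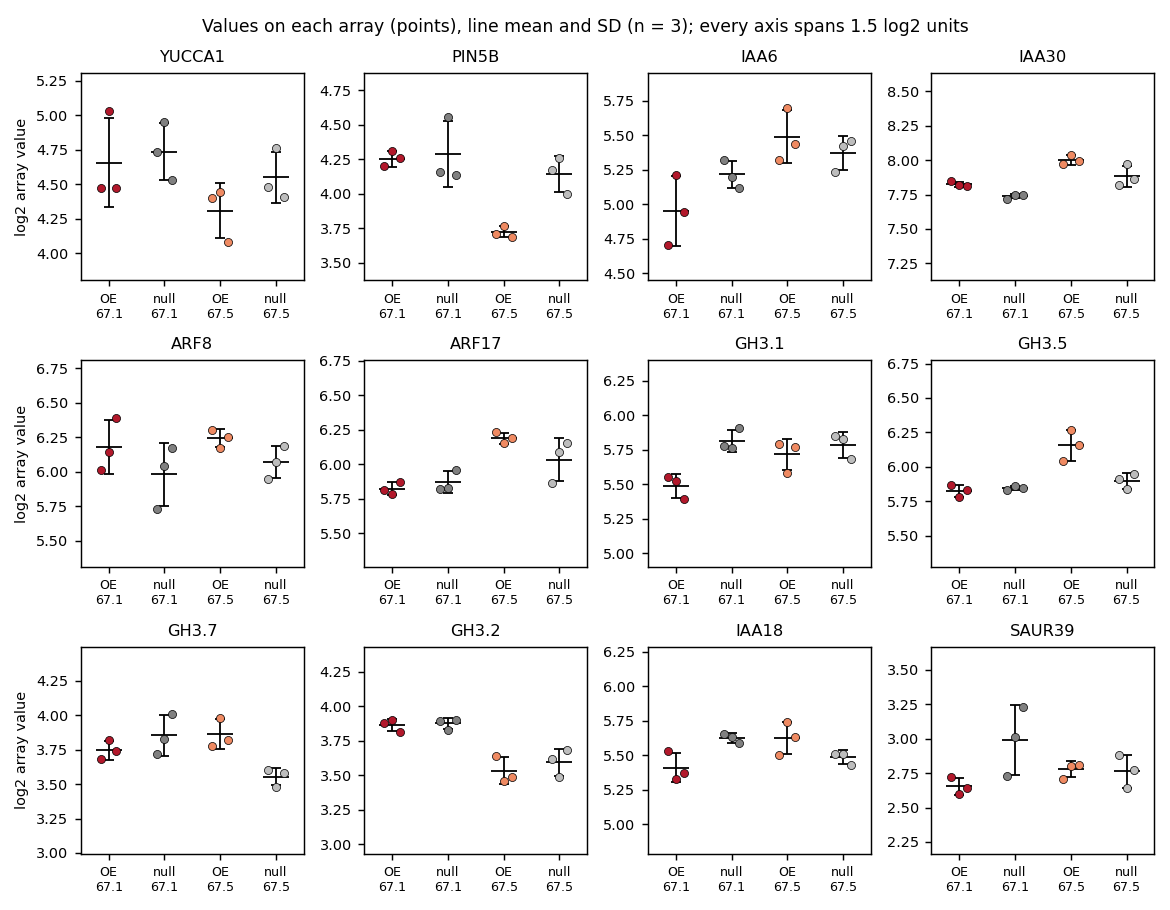
Log2 array values of 12 genes in the 4 lines (points, n = 3 arrays each), with the line mean and SD (bars); every vertical axis spans 1.5 log2 units. PIN5B is low in OE 67.5 alone (3.69 to 3.77), GH3.1 is low in OE 67.1 alone (5.39 to 5.55), GH3.5 is high in OE 67.5 alone (6.04 to 6.27), GH3.2 divides the couples, and YUCCA1 and ARF8 overlap within each couple.

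Couple by couple, no auxin gene passed either. In couple 67.1, 25 of 60 genes had a positive difference, against 52.7% of all probe sets. There, 4 of 60 genes, or 6.67%, had an unadjusted p under 0.05 in limma, against 3.46% of all probe sets; 0.0165% of all probe sets passed the adjusted threshold. The 4 were ARF10, higher, and GH3.1, SAUR39 and IAA18, lower. IAA18 (LOC4339365) had 5.53, 5.33 and 5.37 in OE 67.1 against 5.65, 5.63 and 5.59 in null 67.1, without overlap, and differed by -0.21 ± 0.09. IAA6 (LOC4326541) had 4.70, 5.21 and 4.94 in OE 67.1 against 5.32, 5.20 and 5.12 in null 67.1, which overlapped, and differed by -0.27 ± 0.13. Without repetition 1 of OE 67.1, at 4.70, that difference was -0.14. The arrays of OE 67.1 and null 67.1 did not overlap for 8 of 60 genes, or 13.3%, against 9.29% of all probe sets. The mean over the 14 seed markers was 3.15 to 3.23 in OE 67.1 and 3.26 to 3.34 in null 67.1. Of these markers 11 of 14 were lower, with a median difference of -0.07, and none passed. On all 12 arrays, 12 of the 14 lay below the array median. In couple 67.5 the seed markers split into 7 higher and 7 lower. Of the 9 root and root primordium markers, 5 were lower in couple 67.1, 4 in couple 67.5 and 6 for the mean of both couples. Between the null lines and between the overexpressing lines, 6 of these 9 were higher in the 67.1 line. None of the 9 passed in any of these comparisons. The part of seed or root tissue in the auxin gene values was not tested.

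In couple 67.5, 4 of 60 genes (6.67%) had an unadjusted p under 0.05, against 10.8% of all probe sets, and 0.342% of all probe sets passed the adjusted threshold. GH3.7, GH3.5 and ARF3 were higher and PIN5B was lower. The arrays of OE 67.5 and null 67.5 did not overlap for 10 of 60 genes, or 16.7%, against 14.9% of all probe sets. Of these, 9 were higher in OE 67.5, and PIN5B alone was lower. The directions of all probe sets without overlap are not given here. At an unadjusted p under 0.05 in limma, 5.69% of all probe sets were higher and 5.1% lower. Without repetition 2 of null 67.5 the count of the 60 genes at an unadjusted p under 0.05 was 9. The share of all probe sets in that fit is not given here. All 6 green tissue markers were lower in this couple, with a median difference of -0.11. Their mean was 6.22 to 6.35 in OE 67.5 and 6.38 to 6.61 in null 67.5. In couple 67.1, 5 of the 6 were lower too, with a median of -0.02. For the mean of both couples all 6 were lower, with a median of -0.08. No marker passed, and the part of green tissue in the auxin gene values was not tested.

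The couples gave the same sign for 32 of the 60 genes (53.3%), against 56.6% of all probe sets. The difference between the couples was tested itself, as an interaction term in limma. No auxin gene passed, against 0.033% of all probe sets, while 7 of 60 had an unadjusted p under 0.05, against 5.0% of all probe sets. PIN5B had a positive term, and GH3.7, IAA18, GH3.5, ARF3, SAUR39 and ARF2 had negative ones, ARF2 (LOC4325895, an ETTIN gene) being named after its value was seen. The term of GH3.7 was -0.42 ± 0.14 (adjusted p = 0.785) and that of IAA18 was -0.35 ± 0.13 (adjusted p = 0.867). The count fell to 3 without repetition 2 of null 67.1 or repetition 3 of OE 67.5. It was 4 without repetition 1 of null 67.1 or repetition 2 of OE 67.5, and 11 without repetition 1 of OE 67.5. The shares of all probe sets in these fits are not given here.

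**Figure D4:**
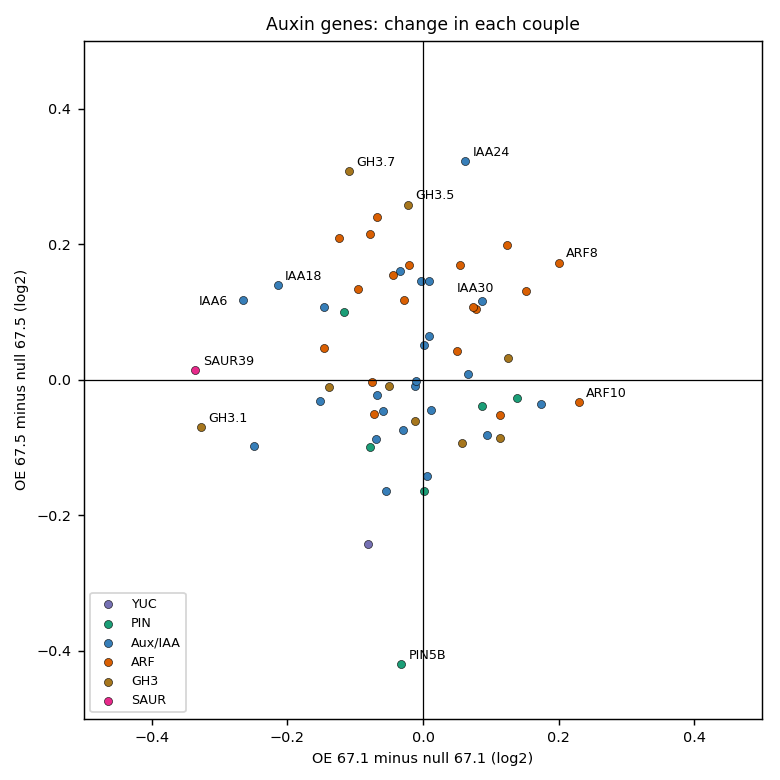
Difference of each of the 60 genes in couple 67.5 (vertical, OE 67.5 minus null 67.5, log2) against that in couple 67.1 (horizontal, OE 67.1 minus null 67.1, log2), coloured by family. PIN5B differs in couple 67.5 (-0.42) and hardly in couple 67.1 (-0.03), GH3.1 and SAUR39 differ in couple 67.1, and 15 of the 19 ARF genes lie above the horizontal line; no gene passed in either couple.

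The lines of different couples were then compared with each other, which shows how far auxin genes vary between lines of the same transgene status. Between the overexpressing lines, OE 67.1 against OE 67.5, 1 of 60 genes passed, or 1.67%, against 0.829% of all probe sets. This was PIN5B, at 0.53 ± 0.11 and a 1.44-fold level (95% interval 1.22 to 1.71, adjusted p = 0.0468 in limma). The call ended with all probe sets of the table in the fit (adjusted p = 0.0779), with a further quantile normalization (0.0656) and with the arrays of these lines alone (0.0627). It was kept without repetition 2 of null 67.1, repetition 3 of OE 67.1, or repetition 1 or 3 of null 67.5, and it was lost without any of the other 8 arrays, with adjusted p-values up to 0.197. With dim probe sets left out, PIN5B was not in the fit and IAA6 passed in its place (adjusted p = 0.0486).

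Further differences between the overexpressing lines missed the threshold as fitted, although 4 of them, IAA6, ARF17, GH3.5 and GH3.2, passed with array weights (adjusted p = 0.0441 to 0.0499 in limma). With array weights 525 of all 24251 probe sets passed, against 201 as fitted. IAA6, known in rice for a role in drought tolerance and tillering, had 4.70, 5.21 and 4.94 in OE 67.1 against 5.32, 5.70 and 5.44 in OE 67.5, without overlap, and differed by -0.54 ± 0.13 (adjusted p = 0.0604 in limma). ARF17 (LOC4341841) had 5.81, 5.78 and 5.87 in OE 67.1 against 6.23, 6.15 and 6.19 in OE 67.5, a difference of -0.36 ± 0.09 (adjusted p = 0.064 in limma). GH3.5 differed by -0.33 ± 0.08 (adjusted p = 0.0631 in limma). GH3.2 (LOC4326893), which in rice inactivates auxin, had 3.88, 3.90 and 3.81 in OE 67.1 against 3.64, 3.46 and 3.49 in OE 67.5, a difference of 0.33 ± 0.09 (adjusted p = 0.0655 in limma). GH3.6 (LOC4337780) had 4.25, 4.27 and 4.39 in OE 67.1 against 4.10, 3.44 and 3.91 in OE 67.5, without overlap, although the arrays of OE 67.5 were spread. Without repetition 1 of null 67.5, IAA6 and ARF17 passed, and without repetition 1 of OE 67.5, IAA6, GH3.2 and GH3.5 did. Of all probe sets, 670 passed in the first of these fits and 625 in the other. The groups did not overlap for 27 of 60 genes (45.0%), 10 higher and 17 lower in OE 67.1, against 30.4% of all probe sets. The directions of all probe sets without overlap are not given here. At an unadjusted p under 0.05 there were 22 genes (36.7%) against 25.7% of all probe sets, 8 higher and 14 lower in OE 67.1. Of all probe sets, 11.1% were higher and 14.6% lower at that p. A further quantile normalization made the count 13 genes (21.7%), 9 higher and 4 lower. Of all probe sets 20.9% were then counted, 2796 higher and 2273 lower. The count was 12 without repetition 2 of OE 67.1 and 13 without repetition 2 or 3 of OE 67.5. The shares of all probe sets in these fits are not given here. Of the green tissue markers, 5 of 6 were lower and none passed, with a list mean of 6.18 to 6.29 in OE 67.1 and 6.22 to 6.35 in OE 67.5. Of the seed markers, 9 of 14 were higher, with a list mean of 3.15 to 3.23 in OE 67.1 and 3.16 to 3.23 in OE 67.5. The seed gene that passed was AMY1.5, an alpha-amylase named after its values were seen, with means of 4.66 ± 0.12 in OE 67.1 and 5.12 ± 0.14 in OE 67.5 (SD, n = 3 each) and a lower level in OE 67.1 (adjusted p = 0.047 in limma). The part of these tissues in the auxin gene values was not tested.

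The families took different sides in this comparison. Of 19 ARF genes, 16 were lower in OE 67.1 than in OE 67.5, with a median of -0.20, where 46.1% of all probe sets were positive, and of 6 PIN genes 5 were higher, with a median of 0.22. The signs ran with signal level across the whole array: 28.8% of the probe sets above 4.54 were positive, with a median of -0.11, against 63.4% of those below it, with a median of 0.06. Of the 60 genes, 29 of the 35 brighter ones were lower and 18 of the 25 dimmer ones were higher. The part of signal level in the family medians was not tested by itself. After a further quantile normalization 14 of 19 ARF genes were lower (median -0.11) and 6 of 6 PIN genes were higher (median 0.17), while the Aux/IAA median turned to 0.05 with that normalization, against -0.06 without it.

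Between the null lines, null 67.1 against null 67.5, no auxin gene passed, against 0.231% of all probe sets. At an unadjusted p under 0.05 there were 8 of 60 (13.3%), against 17.5% of all probe sets. Without repetition 1 of null 67.5 the count was 14, and the share of all probe sets in that fit is not given here. GH3.2 had 3.89, 3.83 and 3.90 in null 67.1 against 3.62, 3.49 and 3.68 in null 67.5, without overlap, so that it was higher in both lines of couple 67.1; the difference was 0.28 ± 0.09 (adjusted p = 0.137 in limma). ARF14 (LOC4339313) had 3.81, 3.77 and 3.70 in null 67.1 against 3.97, 4.23 and 4.02 in null 67.5, a difference of -0.31 ± 0.09 (adjusted p = 0.13 in limma). ARF13 (LOC9269399) had 3.58, 3.73 and 3.55 in null 67.1 against 3.41, 3.20 and 3.18 in null 67.5, a difference of 0.36 ± 0.11. GH3.7 and GH3.11 (LOC4344247) differed by 0.30 ± 0.10 and -0.34 ± 0.11, and both were free of overlap. GH3.11 passed without repetition 1 of null 67.5, at -0.45 (adjusted p = 0.0394 in limma). In that fit 1113 of all 24251 probe sets passed, against 56 as fitted, and 1 of the 60 genes. The null lines did not overlap for 10 of 60 genes (16.7%), against 21.1% of all probe sets. All 6 PIN genes were positive, with a median of 0.11, where 46.8% of all probe sets were positive. Signs ran with signal level here too: 60.3% of the probe sets below 4.54 were positive against 33.3% of those above it. Of the 60 genes, 21 of the 25 dimmer and 11 of the 35 brighter ones were positive. No PIN probe set lay above the array median on all 12 arrays. The part of signal level in the PIN signs was not tested. With a further quantile normalization all 6 PIN genes stayed positive, the smallest at 0.000218. The ARF genes had 15 of 19 negative, which that normalization turned to 9 of 19. All 6 green tissue markers were lower in null 67.1 than in null 67.5, and their part in these values was not tested.

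**Figure D5:**
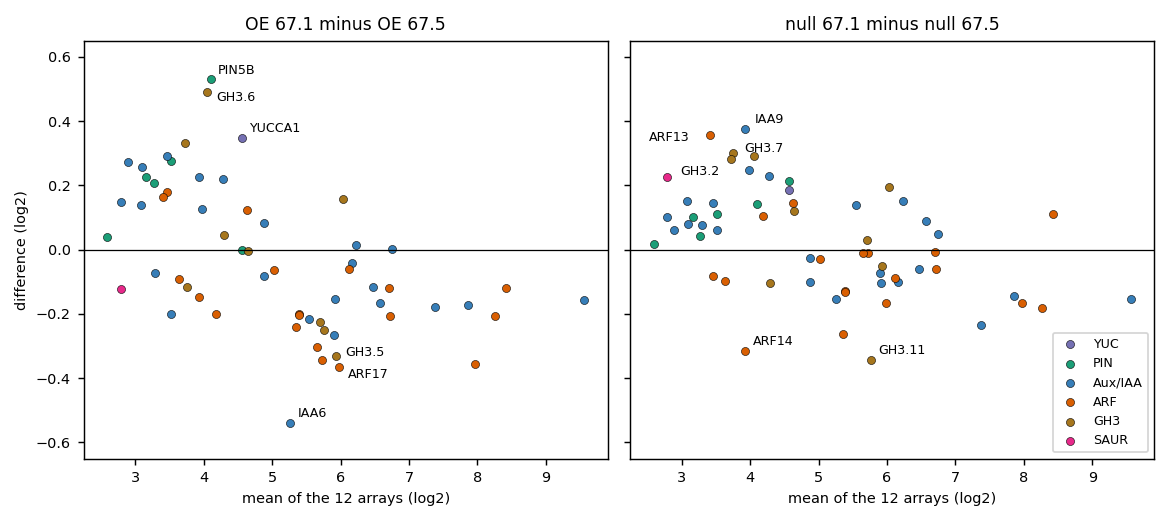
Difference between lines of equal transgene status (vertical, log2; left OE 67.1 minus OE 67.5, right null 67.1 minus null 67.5) against the gene's mean over the 12 arrays (horizontal, log2), coloured by family. In the left panel 18 of the 25 dimmer genes lie above 0 and 29 of the 35 brighter ones below it, PIN5B (0.53) and IAA6 (-0.54) being the farthest; in the right panel 21 of the 25 dimmer genes lie above 0.

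Across the 4 lines, the range of the line means had a median of 0.238 for the 60 genes and of 0.235 for all probe sets, with extremes of 0.56 in PIN5B and 0.07 in IAA5, IAA5 being named after its value was seen.

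Genes of the pathway outside these families were taken from a list of names, of which 25 were measured and kept. They include enzymes of auxin synthesis and of auxin conjugate cleavage, TOPLESS-type co-repressors, RUB modifiers of the receptor complex and WOX factors. In the mean of both couples 15 of 25 were positive and 10 negative, with a median of 0.02, where 53.2% of all probe sets were positive. In the comparisons of overexpressing with null lines 0 passed. Of all probe sets, 0.186% passed for the mean of both couples, 0.0165% in couple 67.1 and 0.342% in couple 67.5. RUB1 (LOC4347085), which encodes a RUB/NEDD8 modifier that activates cullin ubiquitin ligases such as that of the auxin receptor, had the smallest p. It had 5.44, 5.54 and 5.58 in OE 67.1 against 5.60, 5.71 and 5.86 in null 67.1, and 5.61, 5.68 and 6.03 in OE 67.5 against 6.16, 6.55 and 6.50 in null 67.5. The overexpressing line was lower without overlap in both couples, narrowly in couple 67.1, where the nearest arrays were 5.58 and 5.60. The line means there were 5.52 in OE 67.1 and 5.72 in null 67.1. No gene of the list was lower in couple 67.1 at an unadjusted p under 0.05 in limma. Null 67.5 stood apart, above every array of the other lines. The difference was -0.42 ± 0.09 (adjusted p = 0.102 in limma) for the mean of both couples. It passed with a further quantile normalization (adjusted p = 0.0185) and with array weights (0.0304). In couple 67.5 it was -0.64 ± 0.13 (adjusted p = 0.0518 in limma), and it passed there with a further quantile normalization (0.0126), a filter on dim probe sets (0.0414), an intensity trend (0.0497) or array weights (0.0181), and without repetition 1 of null 67.5 or repetition 3 of OE 67.5.

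RUB1 also differed between the null lines, by -0.68 ± 0.13 for null 67.1 minus null 67.5 (adjusted p = 0.0451 in limma). It was the 1 of 25 genes that passed there, against 0.231% of all probe sets. That call was lost with all probe sets of the table (0.0847), with the arrays of the null lines alone (0.0979), and without any 1 array except repetition 1 of null 67.5 or repetition 3 of OE 67.5, with adjusted p-values up to 0.228. ILL1 (LOC4324686), of the family that releases auxin from its amino acid conjugates, had 8.61, 8.45 and 8.68 in OE 67.1 against 8.36, 8.29 and 8.41 in null 67.1, without overlap. It had 8.68, 8.67 and 8.54 in OE 67.5 against 8.36, 8.66 and 8.60 in null 67.5, with overlap, and differed by 0.16 ± 0.07 for the mean of both couples. ILL7 (LOC4342838), of the same family, differed by -0.18 ± 0.08. Neither passed, with adjusted p-values of 0.527 and 0.535 in limma.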

How the data were processed

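Total RNA from 12 stem base samples was hybridised, as biotin-labelled cRNA, to 1-colour Affymetrix arrays, per the labels' protocols. The authors deposited log2 values after RMA, per the submitters' processing notes. Neither its version nor the array's genome build is given in the sources used here. This step brings the arrays closer together, though not to identical distributions here, and compresses differences of dim probe sets. A further quantile normalization still changed the calls over all probe sets, with 61 against 201 between the overexpressing lines. Of 36643 probe sets, 24251 paired with a gene were tested (24161 with 1 gene, 90 with several), and 12392 were unnamed. Symbols were taken from RefSeq's genes for assembly ASM3414082v1. No further scaling was applied. The tests used limma 3.58.1 (lmFit and eBayes, in R 4.3.3) with 1 mean for each of the 4 lines, 8 residual degrees of freedom and all 12 arrays. They were two-sided, and p-values were adjusted by Benjamini and Hochberg's method over 24251 probe sets, at a threshold of 0.05. The fit was tested on simulated data. The labels call the arrays independent repetitions of pooled plants, so p-values measure the spread between such pools within a line and do not tell the transgene apart from whatever else differs between sisters. No array was a copy of another; the most identical values 2 arrays shared was 8.

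The members and lists were chosen with earlier results of these data known. Of the pathway names, 3 whose other names point to another protein were dropped and 1 was outside the choice of genes. Named were members that passed, the 3 with the smallest p per family and the 5 per further comparison, the 6 with the largest range of line means, all of families of up to 6, those separated in both couples, the extremes of level per family, and pathway genes that passed or had the 3 smallest p-values. Alternatives were all probe sets, a further quantile normalization, a filter on dim probe sets, an intensity trend with a robust prior, array weights, a replicate block, only the lines compared, and each array left out. Promoter and protein sequences were not used here.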

Additional observations from a re-analysis of the deposited data

How the results depend on the processing

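The count of auxin genes past the threshold was 0 in both couples, in their mean and in their difference under every alternative run, the left-out arrays included. Between the overexpressing lines it was 1 as reported, 0 with all probe sets of the table, with a further quantile normalization or with only the lines compared, 5 with array weights, 6 with the replicate block, and 0 to 3 without 1 array. Between the null lines it was 0 as reported, 2 with array weights, and 0 to 1 without 1 array. The added calls under array weights, the replicate block and left-out arrays were of IAA6, ARF17, GH3.2, GH3.5 and YUCCA1 between the overexpressing lines, and of GH3.11 and ARF14 between the null lines; the cause was not tested.

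Equal repetition numbers did not meet the rule for pairing, a correlation above 0.1 between the deviations from the line means in every pair of arrays with the same number in different lines. It held in 11 of 18 pairs (median 0.16, lowest -0.25), against 9 of 36 pairs with different numbers (median -0.07), and in all 6 pairs of repetition 3 (0.16 to 0.42), 4 of 6 of repetition 1 and 1 of 6 of repetition 2. The numbers were thus partly shared, a hint from the data and not from the design. Outside the comparison of the overexpressing lines, the block changed no call of the 60 genes. RUB1 passed with it for the mean of both couples (adjusted p = 0.0263) and for couple 67.5 (0.015). Over all probe sets, the block gave 2048 calls between the overexpressing lines, against 201 as reported, and 507 between the null lines, against 56.

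No called direction turned. Near 0, ARF4 for the mean of both couples was -0.0211 with a further quantile normalization and -0.00283 with array weights, and -0.0292 to 0.0844 without 1 array. With array weights GH3.6 was -0.0314 and PIN3A 0.00712. Without 1 array, GH3.6 ran between -0.0681 and 0.108, GH3.8 between -0.119 and 0.035, IAA17 between -0.0605 and 0.0217, IAA26 between -0.121 and 0.00629, PIN3A between -0.063 and 0.0623, and PIN5C between -0.00562 and 0.0643. Over all 60 genes the median for the mean of both couples was -0.01 after a further quantile normalization, with 27 positive, and between the overexpressing lines 0.0058, with 30 positive.

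Calls over all probe sets moved by more than 1.5 times. For the mean of both couples they were 45, with 25 when all probe sets were fitted and 14 to 46 without 1 array. For couple 67.1 they were 4, with 7 under quantile normalization, the dim filter, the intensity trend or array weights, and 2 to 6 without 1 array. For couple 67.5 they were 83, with 33 for all probe sets, 29 for only the lines compared and 20 to 88 without 1 array. For the difference between couples they were 8, with 5 under quantile normalization and 3 to 7 without 1 array. Between the null lines array weights gave 764, only the lines compared 20, and left-out arrays 10 to 1113. Between the overexpressing lines they were 61 for all probe sets and after quantile normalization, 525 with array weights, 29 with only the lines compared, and 20 to 930 without 1 array. Descriptions of promoter and protein motifs, and the alternative of only the bases before the start, were not run. Signal over background was not used here, so whether a dim probe set such as SAUR39 or PIN2 measured its transcript above background is not known.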
